A study of Mus musculus with 6 samples.

Results

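Nuclear genes of oxidative phosphorylation were taken as the rows whose symbol begins with Nduf, Uqcr, Atp5 or Cox4 to Cox8, or is Sdha, Sdhb, Sdhc, Sdhd, Cycs or Cyct. The rule found 92 genes of the 23253 listed in any library, and all 92 were listed in each of the 6 libraries. Poly(A) RNA was measured in testes of C57BL/6 mice aged 8 months, in 3 libraries labelled control and 3 labelled L3mbtl2 cKO, a conditional knockout of a Polycomb PRC1.6 subunit. The labels name neither the Cre driver nor the deleted cell type. They do not say whether each library is from its own animal, and p-values then cover just the spread among these libraries, which may be technical. The comparison asks how the testis transcriptome differs between the genotypes. The targeted gene goes against the labels: L3mbtl2 stood at 14.04, 14.89 and 13.59 FPKM (fragments scaled for gene length and library size) in the control-labelled libraries and at 15.87, 17.09 and 16.03 in the cKO-labelled ones. By counts it was 1.59-fold higher under the cKO label (log2 fold change 0.67, SE 0.10, adjusted p = 0.166 in edgeR and 0.000497 in DESeq2). By mean FPKM the difference was smaller, at 14.2 against 16.3. The gene length used for FPKM ran from 2652 to 3498 bases, and it divided by label. Expected counts were 658, 705 and 673 in the control-labelled libraries and 1030, 1105 and 1031 in the cKO-labelled ones. Library totals were similar, so these counts and FPKM values imply a shorter length in each control-labelled library than in any cKO-labelled one. The cause was not tested. Under the alternative settings the log2 fold change ran from 0.19 to 0.73, higher under the cKO label in each. The names under which the data were deposited also give the genotype opposite to the sample titles, which are the labels used here. Which naming is right was not tested. Each library is therefore named by its label, and every direction would turn if the labels were exchanged.

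Oxidative phosphorylation passes electrons from NADH and succinate through complexes I and II to complex III, then by cytochrome c to complex IV, where oxygen is reduced, and the proton gradient drives ATP synthase, complex V. Most subunits are encoded in the nucleus. Several complex IV subunits and cytochrome c have a ubiquitous gene and a paralog used by male germ cells from meiosis on, so the testis holds both forms in different cells. Genes on the X chromosome are silenced during meiosis in males.

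The 92 genes fall into 35 subunits of complex I, 7 complex I assembly factors, 4 subunits of complex II, 8 of complex III, 19 genes of complex IV, 15 of complex V, the 2 cytochromes c, and 2 genes that carry an Atp5 name only. These last are Atp5s and Atp5sl, which RefSeq now names Dmac2l and Dmac2. Ndufa4 and its paralog Ndufa4l2 were counted with complex IV, where the Ndufa4 protein is found, and so was Cox7a2l, a supercomplex factor. All 92 were matched to RefSeq positions, 3 of them on chromosome X. A further isoform in the plan, Cox8b, was not analysed here.

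The libraries held 17689205 to 18822050 expected counts. A count that is not whole means that reads could have been shared out with another gene, which was so in all 6 libraries for 12 members, Cycs, Cox6b2 and Cox7a2 among them. In RefSeq, 15 members overlap another protein-coding gene, and without strand information their reads cannot be told apart. The control-labelled libraries differed among themselves more than the cKO-labelled ones: for the 90 members that passed the filter on low counts, the median SD of log2 CPM (counts scaled to library size) was 0.19 against 0.074, and over all 18269 genes tested 0.26 against 0.11. Markers of somatic cells followed the same division. The 8 Leydig markers summed to 3495, 1653 and 8688 FPKM in control-labelled replicates 1, 2 and 3, and to between 1212 and 1326 in the cKO-labelled ones.

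No member passed after adjustment for all genes tested. edgeR's quasi-likelihood test with Benjamini-Hochberg adjustment called 0 of the 90 members, as it did 0% of all genes. At an unadjusted p of 0.05, 5 members were higher and 13 lower in the cKO-labelled libraries. That is 20.0% of the members, against 27.7% of all genes (8.85% higher and 18.8% lower). The groups did not overlap in CPM for 29 members, 12 higher and 17 lower, or 32.2%, against 37.9% of all genes (18% higher and 19.8% lower). DESeq2 called 5 members lower and 0 higher, or 5.56%, against 8.07% of all genes (0.405% higher and 7.67% lower), and the 5 were Cox7b, Ndufb11, Ndufa4, Cox8a and Cycs. With the library labelled control replicate 2 left out, 13 were called lower and 8 higher in edgeR, 23.3% of members against 31.7% of all genes (11% higher and 20.7% lower), and these included all 5. At the unadjusted p, in the count of groups without overlap, in DESeq2 and without that library, the members' share was below that of all genes.

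The typical member differed little between the groups. The median log2 fold change of the 90 members was -0.035, labelled cKO minus labelled control, with 52 negative and 38 positive, beside a median of -0.0048 over all genes tested. Its sign depended on a single library: without the library labelled control replicate 3 it was 0.039. For 66 members the change was under 0.3 in either direction.

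**Figure D1:**
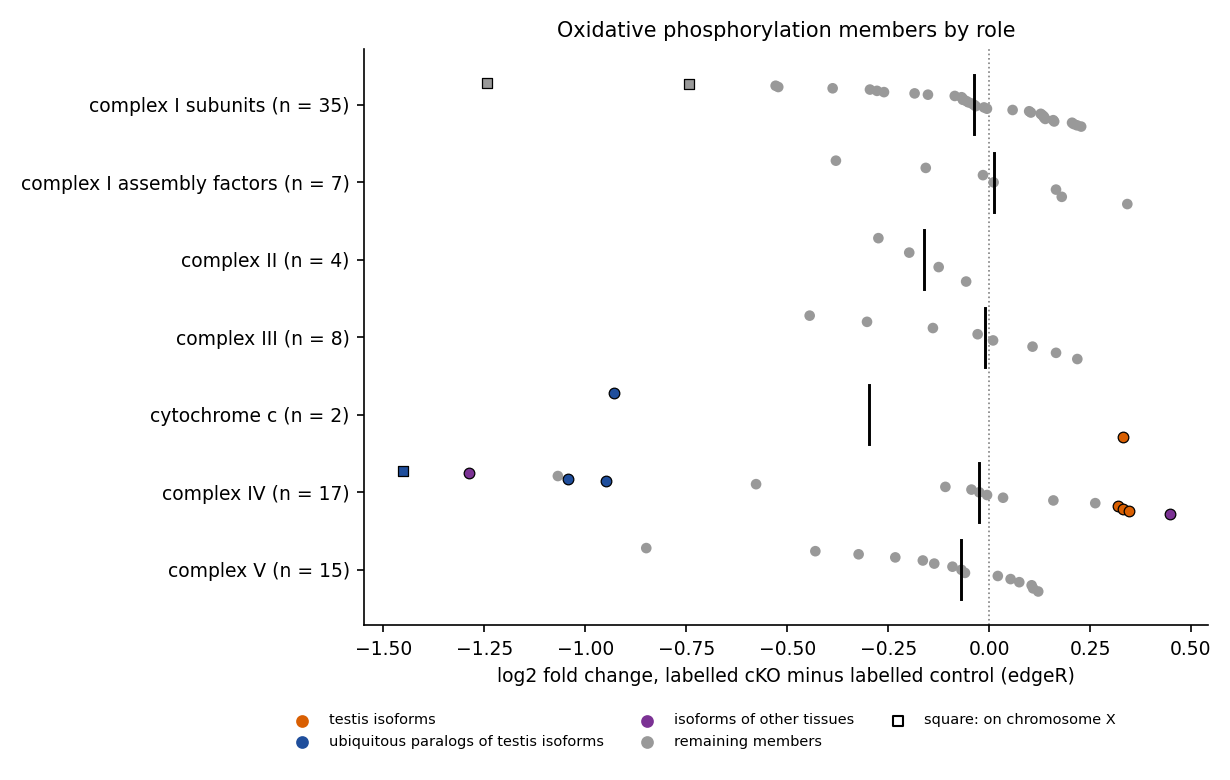
Log2 fold change (labelled cKO minus labelled control, edgeR) of each tested member on the horizontal axis, grouped by role on the vertical axis, with the median of each role as a black bar. The 4 testis isoforms lie together at 0.32 to 0.35, their 4 ubiquitous paralogs at -1.45 to -0.93, and most other members near 0.

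The testis isoforms and their ubiquitous paralogs lay on opposite sides. All 4 testis isoforms (Cyct, Cox6b2, Cox7b2 and Cox8c) were positive, at 0.32 to 0.35 with a median of 0.33, and all 4 paralogs (Cycs, Cox6b1, Cox7b and Cox8a) were negative, at -1.45 to -0.93 with a median of -0.996. The medians became 0.23 and -0.51 when the library labelled control replicate 3 was left out, and 0.51 and -1.25 when replicate 2 was. In testis RNA as a whole, fewer cells of a type and less RNA per cell cannot be told apart.

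Cytochrome c carries electrons between complexes III and IV, and Cyct encodes its testis form. The promoters of the pair, from RefSeq on GRCm38.p6, are shown because the genes lie on opposite sides of the comparison. Each runs from 250 bases before the gene's start to 50 after it, Cycs at chr6:50566520-50566819 and Cyct at chr2:76360404-76360703, both on the minus strand. Capitals mark a cAMP response element, TGACGTCA, searched on both strands, which was found in Cycs and in 2.03% of the 27025 genes with a window. No match says only that these letters are not in this window.
Cycs: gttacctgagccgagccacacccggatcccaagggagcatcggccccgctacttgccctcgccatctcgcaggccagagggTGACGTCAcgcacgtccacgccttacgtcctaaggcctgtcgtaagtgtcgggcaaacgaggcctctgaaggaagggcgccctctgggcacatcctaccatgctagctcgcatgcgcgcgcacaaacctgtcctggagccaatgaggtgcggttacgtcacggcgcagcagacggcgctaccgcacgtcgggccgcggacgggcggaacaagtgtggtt
Cyct: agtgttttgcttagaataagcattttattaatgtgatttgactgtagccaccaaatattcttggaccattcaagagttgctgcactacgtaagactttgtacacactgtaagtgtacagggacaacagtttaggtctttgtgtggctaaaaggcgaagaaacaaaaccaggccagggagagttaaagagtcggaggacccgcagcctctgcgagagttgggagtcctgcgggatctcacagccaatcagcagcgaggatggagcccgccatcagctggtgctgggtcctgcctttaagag

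Cyct stood at 56.5, 70.2 and 50.5 FPKM in the control-labelled libraries (replicates 1, 2 and 3) and at 66.5, 66.5 and 76.1 in the cKO-labelled ones. Replicate 2 of the control label lay within the range of the other group, so the groups overlapped (log2 fold change 0.33, SE 0.16, edgeR adjusted p = 0.202). Cycs stood at 9.51, 8.58 and 19.1 FPKM against 5.83, 5.65 and 6.66, with every library labelled control above every one labelled cKO. Its log2 fold change was -0.93 (SE 0.29), a 1.90-fold difference that did not pass in edgeR (adjusted p = 0.166) and passed in DESeq2 (adjusted p = 0.0316). Cyct made up 85.6, 89.1 and 72.5% of the pair's summed FPKM in the control-labelled libraries and 91.9, 92.2 and 91.9% in the cKO-labelled ones.

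Cox6b2 and Cox6b1 encode a subunit on the intermembrane side of complex IV. Cox6b2 stood at 175, 218 and 158 FPKM in the control-labelled libraries and at 219, 232 and 193 in the cKO-labelled ones, so that replicate 2 of the control label overlapped the other group (log2 fold change 0.32, SE 0.15). Cox6b1 stood at 47.7, 37.7 and 104 against 33.0, 26.8 and 31.4 FPKM, without overlap (log2 fold change -0.95, SE 0.35, edgeR adjusted p = 0.167). The testis form made up 60.4% of the pair in the library labelled control replicate 3, its lowest share in any of the 4 pairs, and 86.0 to 89.6% in the cKO-labelled ones.

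Cox7b2 and Cox7b gave the widest split. Cox7b, an X-linked gene (chromosome X, 106015700 to 106022450), stood at 7.90, 4.43 and 17.0 FPKM in the control-labelled libraries and at 3.42, 3.16 and 3.22 in the cKO-labelled ones. The groups did not overlap, and the difference was 2.74-fold (log2 fold change -1.45, SE 0.45; adjusted p = 0.166 in edgeR and 0.0263 in DESeq2). Cox7b2, its autosomal testis paralog on chromosome 5, stood at 99.9, 117 and 101 against 126, 126 and 123 FPKM, and was the 1 testis isoform of the 4 whose groups did not overlap (log2 fold change 0.33, SE 0.11, edgeR adjusted p = 0.166). Cox7b2 made up 92.7, 96.3 and 85.6% of the pair under the control label and 97.4, 97.5 and 97.5% under the cKO label.

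Cox8c and Cox8a encode the smallest complex IV subunit. Cox8c had the highest mean FPKM of all 92 members, at 301, 381 and 267 in the control-labelled libraries and 363, 397 and 371 in the cKO-labelled ones, with overlap through replicate 2 of the control label (log2 fold change 0.35, SE 0.15, edgeR adjusted p = 0.183). Cox8a stood at 62.7, 35.2 and 113 against 33.0, 32.2 and 29.8 FPKM. The groups did not overlap, though the library labelled control replicate 2 came close to the cKO-labelled ones (log2 fold change -1.04, SE 0.36; adjusted p = 0.166 in edgeR and 0.0401 in DESeq2).

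**Figure D2:**
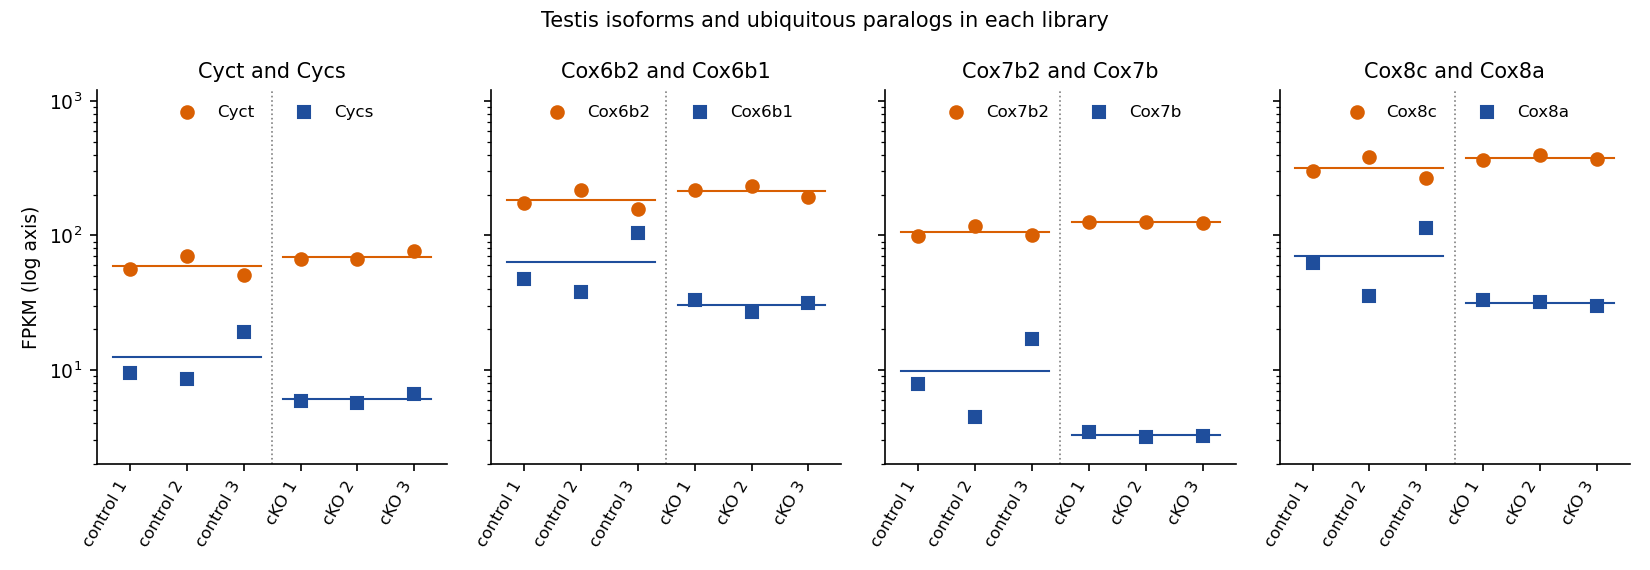
FPKM on a log axis of each testis isoform (orange circles) and its ubiquitous paralog (blue squares) in the 6 libraries, by label, with lines at the group means. In all 4 pairs the paralog is highest in the library labelled control replicate 3, where the testis isoform is lower than in every library labelled cKO.

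The ratio of testis isoform to paralog within a library does not depend on the scaling of that library. Its log2 value differed by 1.19 for Cyct to Cycs (SE 0.49), 1.15 for Cox6b2 to Cox6b1 (SE 0.58), 1.61 for Cox7b2 to Cox7b (SE 0.62) and 1.26 for Cox8c to Cox8a (SE 0.64), labelled cKO minus labelled control. These are 2.29, 2.22, 3.04 and 2.40-fold differences. In each pair all 3 libraries labelled cKO lay above all 3 labelled control, and a two-sided exact permutation test gave p = 0.1, the smallest that 3 against 3 allows (0.1 after adjustment over the 4 ratios). Their size moved with which control-labelled library was left out. Without replicate 3 they were 0.73, 0.62, 1.07 and 0.73 in the same order, and without replicate 2 they were 1.54, 1.58, 2.14 and 1.82.

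The sum of both forms differed by a smaller fold than either form alone. The forms differed in opposite directions, so the fold of their sum must lie between theirs. Compensation between the forms was not tested. Cyct and Cycs together stood at 71.5 ± 6.56 FPKM in the control-labelled libraries and 75.8 ± 6.04 in the cKO-labelled ones (SD, n = 3 each). Cox6b2 with Cox6b1 stood at 247 ± 21.1 and 245 ± 18.2, and Cox8c with Cox8a at 386 ± 26.8 and 409 ± 18.1. In FPKM these 3 sums differed by less than the SD of the control-labelled libraries. Unlike the ratios, the sums depend on the scaling of each library. The count fit scaled by factors of 1.01 to 1.06 in the control-labelled libraries and 0.96 to 0.97 in the cKO-labelled ones. FPKM holds no such factor, and applying it would raise the cKO-labelled sums relative to the others. The comparison with the SD therefore holds for FPKM alone, may not hold after that scaling, and does not show equal sums. Cox7b2 with Cox7b, at 116 ± 7.07 and 128 ± 1.44, was higher in all 3 libraries labelled cKO (two-sided exact permutation p = 0.1).

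Cell type markers differed between the same libraries. The mean log2 CPM of the 8 Leydig markers, genes of the cells that make testosterone, was 7.25, 6.31 and 8.37 in the control-labelled libraries and 5.99, 5.73 and 5.72 in the cKO-labelled ones, and all 8 were lower by label. For the 8 Sertoli markers, genes of the supporting cells of the tubule, it was 5.76, 5.24 and 6.49 against 4.97, 5.001 and 4.90, again with all 8 lower, and summed to 782 to 2108 FPKM against 589 to 615. All 6 macrophage, 6 peritubular and stromal, and 5 endothelial and pericyte markers were lower too. In these lists, however, the mean of control-labelled replicate 2 was near the cKO-labelled libraries. It was 4.16 against 3.83 to 4.23 for peritubular and stromal markers and 2.47 against 2.21 to 2.60 for endothelial and pericyte markers. For macrophage markers it was 2.89 against 2.61 to 2.87. The 7 spermatid markers were all higher, at a mean of 9.94, 10.1 and 9.62 against 10.3, 10.3 and 10.2, and summed to 15976 to 22454 FPKM against 23103 to 25435. The 5 pachytene spermatocyte markers were all higher as well. No marker was at 0 in every library. The library labelled control replicate 3 had the most somatic and the least spermatid signal, and it also had the highest level of all 4 paralogs. The part of cell makeup in the differences was not tested.

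**Figure D3:**
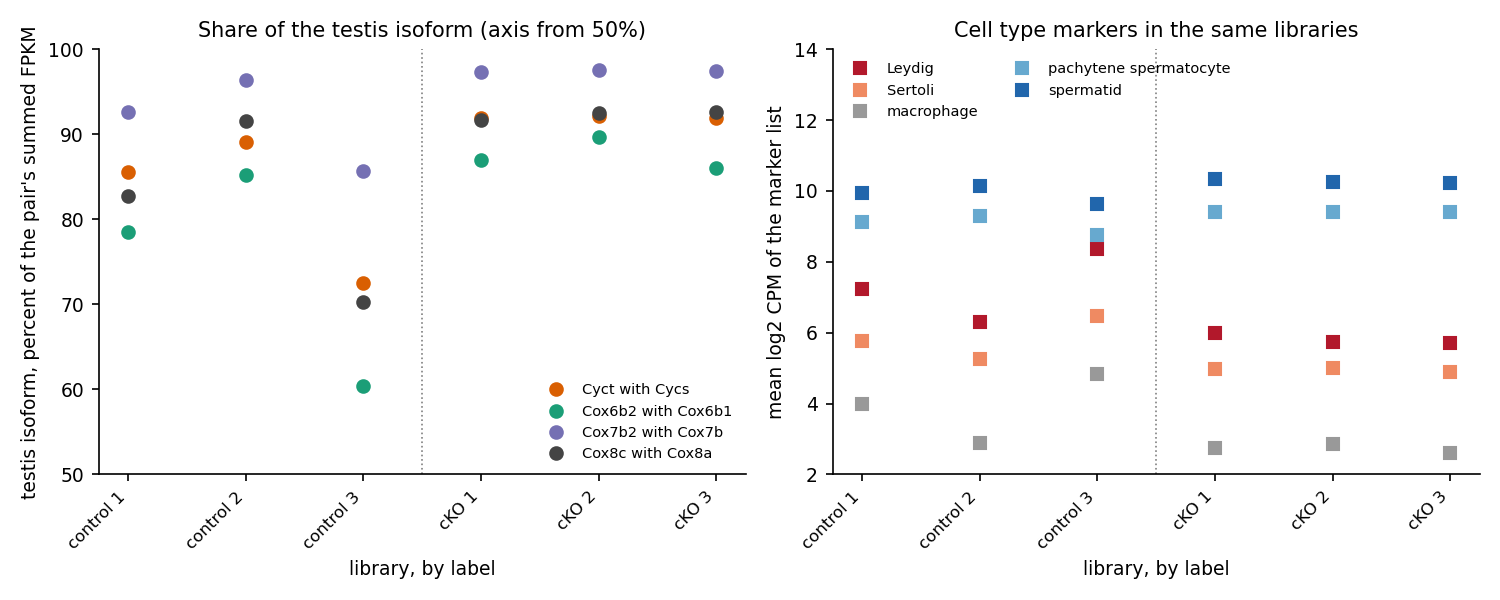
Left, the testis isoform's percent of the summed FPKM of its pair in each library, on an axis from 50%. Right, the mean log2 CPM of marker lists in the same libraries. The share is lowest, at 60.4 to 85.6%, in the library labelled control replicate 3, where the Leydig mean is highest at 8.37.

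Isoforms used by other tissues were low or mixed. The hypoxia-responsive Cox4i2 stood at 0.08 to 0.75 FPKM and the striated muscle form Cox6a2 at 0.09 to 0.54, and these are the 2 members that did not pass the filter on low counts. Cox7a1, the form of heart and skeletal muscle, stood at 3.66, 2.25 and 7.34 FPKM in the control-labelled libraries against 1.87, 1.26 and 1.88, without overlap (log2 fold change -1.29, SE 0.49, edgeR adjusted p = 0.169). Its paralog Cox7a2 lay the other way, at 118, 110 and 114 against 119, 129 and 135 FPKM (log2 fold change 0.26, SE 0.091, adjusted p = 0.166). Ndufa4 and Ndufa4l2 were opposed as well. Ndufa4 stood at 46.1, 34.4 and 85.7 FPKM against 25.6, 25.4 and 22.8, without overlap, a 2.10-fold difference (log2 fold change -1.07, SE 0.31; adjusted p = 0.166 in edgeR and 0.0228 in DESeq2). Ndufa4l2, known as a hypoxia-induced gene, stood at 23.3, 22.0 and 18.1 against 27.1, 28.7 and 24.9 FPKM, also without overlap, and had the highest log2 fold change of any member at 0.45 (SE 0.14). It overlaps Shmt2, whose log2 fold change was -0.37.

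Among the remaining complex IV genes, Cox6a1 stood at 207, 151 and 295 FPKM in the control-labelled libraries against 129, 141 and 137 (log2 fold change -0.58, SE 0.21, edgeR adjusted p = 0.167). Every library labelled control was above every one labelled cKO. Cox4i1, the ubiquitous form of the largest nuclear subunit, stood at 212 ± 9.27 against 198 ± 5.77 FPKM, with a log2 fold change of -0.0050 by counts that changed sign with the scaling (0.0078 with DESeq2 size factors). No difference in it was detectable here. Complex IV as a whole, with 17 tested genes, ran from -1.45 to 0.45 and had a median of -0.024. At an unadjusted p of 0.05, 6 were lower and 3 higher, or 52.9% against 27.7% of all genes. The groups did not overlap for 52.9% of them, against 37.9% of all genes. The isoform pairs are among these genes, and edgeR called 0 after adjustment.

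The 3 X-linked members were all lower by label, a grouping chosen after the values were seen. Beside Cox7b these were Ndufb11 and Ndufa1, both accessory subunits of the membrane arm of complex I. Ndufb11 stood at 24.1, 16.7 and 44.4 FPKM in the control-labelled libraries against 12.98, 10.3 and 10.1 (log2 fold change -1.24, SE 0.34; adjusted p = 0.166 in edgeR and 0.0147 in DESeq2). Ndufa1 stood at 39.0, 33.6 and 79.2 against 28.3, 28.2 and 27.9 FPKM (log2 fold change -0.74, SE 0.31, edgeR adjusted p = 0.174). In both, as in Cox7b, the groups did not overlap and the library labelled control replicate 3 was highest. Each overlaps another gene in RefSeq, Ndufb11 with Rbm10 and Ndufa1 with Rnf113a1, and these were at 6.27 and 0.560 FPKM in the control-labelled libraries. Over all 728 X-linked genes tested the median log2 fold change was -0.45, with 503 negative, and over 15801 autosomal genes it was -0.026. The groups did not overlap for 41.2% of the X-linked genes tested, 278 lower and 22 higher. Among all genes it was 37.9% (18% higher and 19.8% lower). The median of the 87 autosomal members tested was -0.028.

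Complex I subunits, Ndufb11 and Ndufa1 included, lay near the middle. The 35 had a median of -0.037, with 21 negative and 14 positive, and 4 lower and 0 higher at an unadjusted p of 0.05, or 11.4% beside 18.8% of all genes lower. The 4 were Ndufb11, Ndufa1, Ndufc2 and Ndufa10 (log2 fold change -0.52, SE 0.22), the last named after its values were seen. Ndufc2, an accessory subunit, stood at 33.6, 31.2 and 52.7 FPKM against 27.3, 24.6 and 24.0, without overlap (log2 fold change -0.53, SE 0.21). The most abundant subunits differed less: Ndufc1 stood at 133 ± 6.79 against 144 ± 1.04 FPKM (log2 fold change 0.21, SE 0.10) and Ndufa12 at 131 ± 4.24 against 136 ± 9.20 (log2 fold change 0.16, SE 0.10). Among the 7 assembly factors the median was 0.011 and levels ran from 0.97 to 177 FPKM. The highest was Ndufaf3, at 176, 179 and 130 FPKM against 189, 199 and 187, without overlap (log2 fold change 0.34, SE 0.14, adjusted p = 0.175). Ndufaf2 stood at 39.5 ± 5.31 against 41.9 ± 0.644 FPKM (log2 fold change 0.18, SE 0.14) and Ndufaf7 at 12.1 ± 0.935 against 12.4 ± 0.762 (log2 fold change 0.17, SE 0.13).

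Complexes II and III have no testis isoforms among the members. All 4 subunits of succinate dehydrogenase, complex II, were negative, at -0.27 to -0.057. Sdhd, a membrane anchor, stood at 37.8, 36.6 and 50.7 FPKM against 32.2, 31.9 and 32.4, without overlap (log2 fold change -0.27, SE 0.14, adjusted p = 0.215). Sdhb, the iron-sulfur subunit, stood at 69.2 ± 9.37 against 62.0 ± 2.68 FPKM (log2 fold change -0.057), which turned to 0.041 without the library labelled control replicate 3. Sdha, the flavoprotein, stood at 55.5 ± 11.4 against 45.1 ± 1.23 FPKM (log2 fold change -0.20, SE 0.14). The 8 complex III genes were divided, 4 positive and 4 negative, with a median of -0.0092. Uqcr10 was lower, at 104 ± 18.7 against 78.6 ± 5.79 FPKM (log2 fold change -0.30, SE 0.15). The core protein gene Uqcrc1, at 155 ± 4.35 against 163 ± 6.66 (log2 fold change 0.17, SE 0.086), and Uqcrq, at 74.4 ± 1.55 against 79.6 ± 1.34 (log2 fold change 0.22, SE 0.084), lay the other way. Uqcrq overlaps Gdf9, whose log2 fold change was 0.36.

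In complex V, with 15 genes and a median of -0.068, the widest difference lay in a gene of the rotating ring. Mammalian subunit c is encoded by Atp5g1, Atp5g2 and Atp5g3, which give the same mature protein. Atp5g3 stood at 103, 72.8 and 213 FPKM in the control-labelled libraries against 68.3, 65.7 and 66.3, without overlap, a 1.801-fold difference (log2 fold change -0.85, SE 0.34, edgeR adjusted p = 0.173). It supplied 55.6, 44.2 and 62.0% of the summed FPKM of the 3 genes in the control-labelled libraries and 44.7, 40.7 and 49.8% in the cKO-labelled ones. The share in control-labelled replicate 2 lay within the cKO-labelled range. Atp5g2, whose counts were not whole in all 6 libraries, stood at 21.5, 35.3 and 52.1 against 27.8, 33.0 and 14.6 FPKM, which moves both the shares and the sum. The sum of the 3 genes was 185, 165 and 343 against 153, 161 and 133 FPKM, highest in the library labelled control replicate 3. In FPKM the groups did not overlap, by a narrow gap between control-labelled replicate 2 and cKO-labelled replicate 2. FPKM lacks the scaling of the count fit, whose factors in these libraries were 1.01 and 0.97, so the gap depends on the scaling. Atp5l, a subunit of the membrane part, stood at 80.9 ± 12.7 against 60.3 ± 2.91 FPKM (log2 fold change -0.32, SE 0.13). The catalytic subunit gene Atp5b, at 319 ± 29.8 against 286 ± 4.41 FPKM (log2 fold change -0.060, SE 0.097), and Atp5e, at 164 ± 4.07 against 165 ± 3.28 (log2 fold change 0.11, SE 0.092), differed little.

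**Figure D4:**
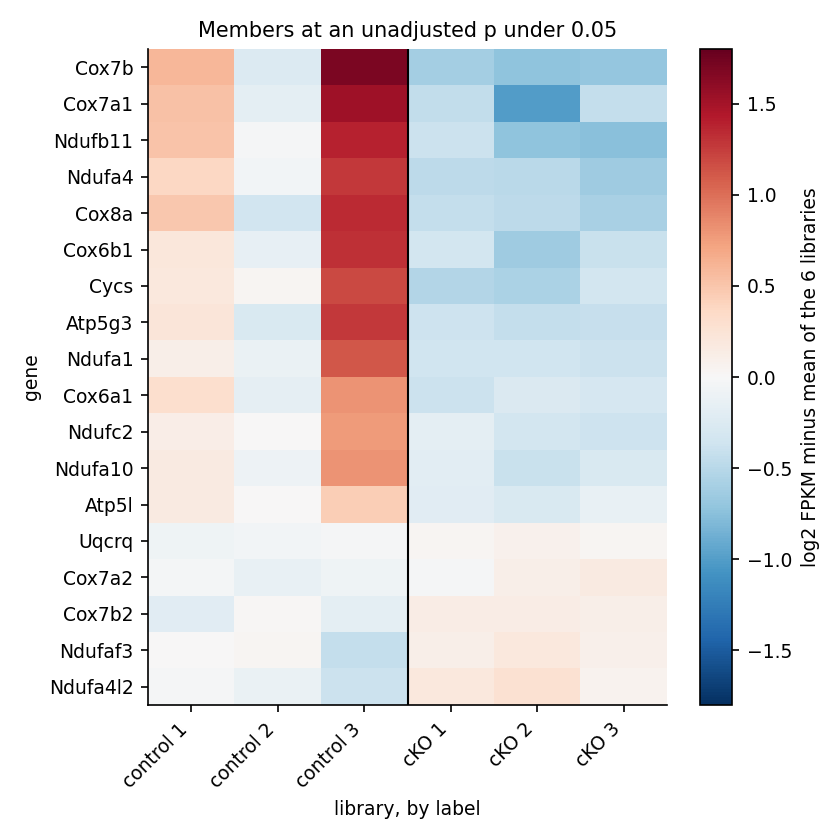
Log2 FPKM minus the mean of the 6 libraries, for the 18 members at an unadjusted p under 0.05 (rows, ordered by fold change) in the 6 libraries (columns). The 13 lower members are highest in the library labelled control replicate 3 and intermediate or near the cKO-labelled libraries in replicate 2.

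NRF1 is a transcription factor known to bind promoters of respiratory genes. Its core, GCGCA, any base, then GCGC, on either strand, was found in a window of 18 of the 76 members with a RefSeq promoter entry (23.7%), against 5.19% of all genes with one. The 18 had a median log2 fold change of -0.10 and the other 58 tested members with a window -0.026. The E-box CACGTG was found in 7 of 76 (9.21%), against 8.09% of all genes, and the cAMP response element in 5 (6.58%). Cox6a1, 1 of the lower members, is shown because its window (GRCm38.p6, chr5:115348909-115349208, minus strand) holds the core at more than 1 place, in capitals. A match is a description of the letters, not a bound site.
Cox6a1: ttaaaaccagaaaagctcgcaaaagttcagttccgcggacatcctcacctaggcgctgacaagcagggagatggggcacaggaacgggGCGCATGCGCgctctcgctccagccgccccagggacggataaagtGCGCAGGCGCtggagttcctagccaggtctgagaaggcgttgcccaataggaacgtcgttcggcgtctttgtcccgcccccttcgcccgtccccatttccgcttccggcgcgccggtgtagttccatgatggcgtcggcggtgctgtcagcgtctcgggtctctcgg

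Further genes of the pathway were read as 5 lists. Of 79 tested genes in these lists, edgeR called 0, with 15 lower and 0 higher at an unadjusted p of 0.05. That is 19.0%, beside 18.8% of all genes lower and 27.7% in either direction. DESeq2 called 5 lower, where it called 7.67% of all genes lower. The median was -0.044, with 46 negative. Carriers of the inner and outer membrane held 4 of the 15, out of 8 tested, or 50% beside 18.8% of all genes lower. The X-linked ADP/ATP carrier Slc25a5 stood at 47.6, 31.4 and 94.97 FPKM against 25.7, 25.0 and 23.6 (log2 fold change -1.12, SE 0.35; DESeq2 adjusted p = 0.0213). The outer membrane channel Vdac1 stood at 23.2, 15.2 and 41.4 against 11.9, 11.2 and 10.9 FPKM (log2 fold change -1.12, SE 0.31; DESeq2 adjusted p = 0.0157). Slc25a31, the germ cell ADP/ATP carrier, lay the other way at 23.4 ± 3.13 against 25.4 ± 1.22 FPKM (log2 fold change 0.21, SE 0.13).

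Pyruvate dehydrogenase, which feeds the citric acid cycle, has a similar pair. The X-linked Pdha1 stood at 5.66, 3.07 and 10.6 FPKM in the control-labelled libraries against 2.61, 2.55 and 2.0 (log2 fold change -1.32, SE 0.40; DESeq2 adjusted p = 0.0217). Its autosomal testis paralog Pdha2 stood at 55.0, 63.5 and 47.6 against 61.0, 64.9 and 62.6 FPKM (log2 fold change 0.28, SE 0.13). Pdha2 and Slc25a31 were named after their values were seen. The X-linked Idh3g, of isocitrate dehydrogenase, stood at 17.4, 10.2 and 29.0 against 9.26, 8.19 and 9.04 FPKM (log2 fold change -0.98, SE 0.32; DESeq2 adjusted p = 0.0407).

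The 37 tested assembly factors and chaperones had a median of -0.044, with 5 lower and 0 higher at an unadjusted p of 0.05, or 13.5% beside 18.8% of all genes lower. Surf1, a complex IV assembly factor, stood at 10.6 ± 2.21 against 6.44 ± 0.648 FPKM (log2 fold change -0.61, SE 0.19), and Cox15, needed to make heme a, at 4.17 ± 1.46 against 2.36 ± 0.132 (log2 fold change -0.71, SE 0.24). Among 5 core genes outside the symbol rule, cytochrome c1, Cyc1, stood at 39.5 ± 9.08 against 26.9 ± 0.603 FPKM (log2 fold change -0.45, SE 0.16), and Higd1a at 30.2 ± 0.524 against 28.7 ± 1.16 (log2 fold change 0.030, but -0.069 by library totals). The 11 regulators of mitochondrial biogenesis had a median of -0.0049. The mitochondrial transcription factors Tfam, at 35.2 ± 6.04 against 41.4 ± 3.76 FPKM (log2 fold change 0.33, SE 0.15), and Tfb2m, at 6.74 ± 0.776 against 4.75 ± 0.474 (log2 fold change -0.40, SE 0.15), lay on opposite sides.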

How the data were processed

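Poly(A) RNA of 6 testis libraries was grouped by sample title (3 labelled control, 3 labelled cKO); the table names give the other genotype. The authors deposited expected counts and FPKM values per gene, columns that RSEM writes, per the file headers. The submitters' processing notes name RSEM, HISAT2 2.0.4, Bowtie2 2.2.5, bcl2fastq 2.16, DESeq2 and mm10, with no role or order. Each table lists genes with an FPKM of at least 0.01, and genes not in a table were given 0. No source used here gives strandedness.

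Expected counts, 17689205 to 18822050 per library, were rounded for edgeR 4.0.16 (R 4.3.3): filterByExpr defaults (minimum count 10, minimum total 15; 18269 genes kept), TMM scaling, the quasi-likelihood F-test and Benjamini-Hochberg adjustment over all genes at 0.05. The common biological coefficient of variation was 22.8%, pooled over both groups. The cKO-labelled libraries spread less, and there counting error is not small beside the spread for genes such as Cox7b (62 to 71 counts). Levels are FPKM, which is scaled for length and may be compared between genes; a mean is given ± SD over 3 libraries. Log2 CPM for markers used a prior count of 2. Alternatives were DESeq2 size factors or library totals in edgeR, DESeq2 1.42.0, limma 3.58.1 on log2 FPKM with pseudocounts 1 and 0.1 for genes at 1 FPKM in 3 libraries, no filter, a filter of 5 CPM in 3 libraries, each library left out, and the replicate number as a block. The count fits and limma were tested on simulated data. These had the same dispersion in both groups, so that test does not cover the unequal spread seen here.

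The members, the lists and the tests were chosen with earlier results of these data known. Genes named were L3mbtl2, the isoforms of testis and other tissues with their paralogs, the 2 most abundant members and the 2 with the smallest p in each complex or assembly group, and the 2 with the smallest p in each further list, 33 members and 11 others. Any further gene named was chosen after its values were seen. RefSeq sequences and positions are of GRCm38.p6, the assembly of mm10; proteins were not used here. Striated muscle and brown fat markers, read for the muscle isoforms, summed to at most 1.05 and 14.6 FPKM.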

Additional observations from a re-analysis of the deposited data

How the results depend on the processing

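Counts of calls depended on the test and on a single library. In edgeR 0 genes passed in either direction, against 72 higher and 1364 lower in DESeq2 and 1 higher in limma at either pseudocount. Leaving out each library in turn gave 0 to 2049 higher and 0 to 3851 lower, with the highest counts without the library labelled control replicate 2. Among members these gave 0 to 8 higher and 0 to 13 lower, and DESeq2 gave 5 lower. Among the other pathway genes they gave 0 to 5 higher and 0 to 13 lower, and DESeq2 gave 5 lower. The cause was not tested.

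Scaling moved the medians near 0. Library totals moved the median of all genes from -0.0048 to -0.10, and gave -0.14 for all members, -0.14 for complex I subunits, -0.11 for complex III, -0.13 for complex IV and -0.14 for the remaining members. With limma at pseudocounts 0.1 and 1 the values were -0.14 and -0.13 for all members, complex I subunits and the remaining members, and both -0.12 for complex IV (-0.121 and -0.119). The strict filter gave 0.13 for the assembly factors and 0.41 for isoforms of other tissues, since it kept fewer genes. The latter had -0.12 in DESeq2 and -0.14 with no filter, where more genes entered, and -0.53 to -0.19 with a library left out. The medians of the testis isoforms (0.23 to 0.51) and of their paralogs (-1.25 to -0.51) kept their signs under all 14 alternatives, as did the 4 ratios under their 9.

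Of 42 named genes tested, 38 kept their sign under every alternative. Cox4i1 was 0.015 in DESeq2, 0.0078 with DESeq2 size factors, 0.0027 with no filter, and -0.027 to 0.023 with a library left out. Higd1a was -0.069 by library totals, -0.0045 with the strict filter and -0.074 and -0.072 with limma. With a library left out Atp5b ran from -0.085 to 0.0026 and Sdhb from -0.10 to 0.041. DESeq2 called 10 of the 42, and edgeR without the library labelled control replicate 2 called 25. Adjusted p of Cox7b ran from 0.0111 to 0.377 over the alternatives, of Ndufb11 from 0.0099 to 0.377, of Cox8a from 0.0095 to 0.377, of Ndufa4 from 0.0122 to 0.377 and of Cycs from 0.0194 to 0.377.

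No pairing by replicate number was seen: deviations of same-numbered libraries correlated at -0.039 to 0.043, and those of other pairs at -0.066 to 0.074. In each group 1 of 3 libraries correlated best with its own number. A check on 3 libraries per group cannot tell whether a litter or batch was shared. With the replicate number as a block edgeR called 0 genes and 0 members, as without it, and the medians were 0.34 and -0.87 for the testis isoforms and their paralogs. Within numbers the exact test of the ratios cannot go below 0.25. Depth limits Cox4i2 and Cox6a2, which were too low to test.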
